A study of Mus musculus with 3 samples.

Results

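The platelet-derived growth factor (PDGF) family was followed in the non-cardiomyocytes (non-CMs) of the mouse heart during pressure overload. Its members were chosen by name as the 4 ligand genes Pdgfa, Pdgfb, Pdgfc and Pdgfd and the 2 receptor genes Pdgfra and Pdgfrb, and all 6 were found among the 27998 genes of each deposited matrix. PDGF ligands are secreted as dimers, and they bind receptor tyrosine kinases that pair up and phosphorylate each other, which recruits adaptors and starts Ras, phosphoinositide 3-kinase and STAT signaling. PDGF-A and PDGF-C act mainly through PDGF receptor alpha, a marker of fibroblasts (FBs), while PDGF-B and PDGF-D act mainly through PDGF receptor beta, which pericytes and smooth muscle cells carry. In blood vessels, PDGF-B made by endothelial cells (ECs) is known to recruit and hold pericytes, and in the heart, excess PDGF signaling is known to drive the growth of FBs.

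The study compared 3 phases by droplet-based single-cell RNA sequencing (scRNA-seq), with 1 library per phase. All mice were wild-type males of the C57BL/6JJcl strain, and transverse aortic constriction (TAC), which narrows the aortic arch and raises the load on the left ventricle, was performed at 8 weeks of age. The healthy library is labelled Control and stands for week 0, the adaptive hypertrophy library was taken 2 weeks after TAC, and the heart failure library was taken 12 weeks after TAC. The sources used here do not say whether the healthy mice had a sham operation, how old they were or how many mice went into a library, and age advances with time after surgery. The cells came from ventricles and were freed with collagenase, treated with red cell lysis buffer and cleared on Percoll. Phase and library coincide, so that no difference between phases could be tested, and the 95% intervals given below cover counting error only.

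Unique molecular identifiers (UMIs), each standing for 1 captured mRNA molecule, were counted per gene and cell, and the level of a gene in a class is given as its UMIs per 1000000 UMIs of the class (CPM). After cells with under 200 genes were removed, 3892, 2231 and 792 cells remained at 0, 2 and 12 weeks, with median depths of 2589, 1495 and 1434 UMIs. A cell entered the class with the highest summed UMIs of its markers if it had at least 2 of them and at least 2 times as many as for any other class. The markers were Pecam1, Cdh5 and Kdr for ECs, Col1a1 and Col1a2 for FBs, Rgs5, Vtn and Myh11 for mural cells (pericytes and smooth muscle cells), and Ptprc and Tyrobp for blood cells. This gave 1040, 1602 and 240 ECs, 1206, 109 and 178 FBs, 446, 81 and 42 mural cells and 860, 155 and 79 blood cells at 0, 2 and 12 weeks. The share of cells in no class was 8.74%, 12.7% and 31.9%, and 268 of 340, 265 of 284 and 247 of 253 of them had under 2 marker UMIs. The 3 check genes of each class that the gate did not use (Cldn5, Egfl7 and Tie1 for ECs, Dcn, Tcf21 and Lum for FBs, Kcnj8, Acta2 and Notch3 for mural cells, Cd52, Laptm5 and Cd53 for blood cells) had their highest level in that class in all 3 libraries. The libraries shared 9 cell barcodes in all, counted over the 3 pairs. Hemoglobin and other erythroid genes (Hbb-bs, Hbb-bt, Hba-a1, Hba-a2, Alas2) summed to 2123 CPM in healthy mural cells against 11.2 and 6.68 CPM at 2 and 12 weeks, and their part in the mural values was not tested.

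The members had different leading classes. In the healthy library, Pdgfb and Pdgfd were highest in ECs, Pdgfa and Pdgfrb in mural cells and Pdgfra in FBs, whereas Pdgfc had at most 10 UMIs in any class. These leading classes were the same in the libraries of 2 and 12 weeks for the 5 genes other than Pdgfc. For Pdgfb the lead of ECs over mural cells was within counting error in the healthy library (ratio 1.29, 0.955 to 1.77) and at 2 weeks (1.11, 0.773 to 1.64).

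**Figure D1:**
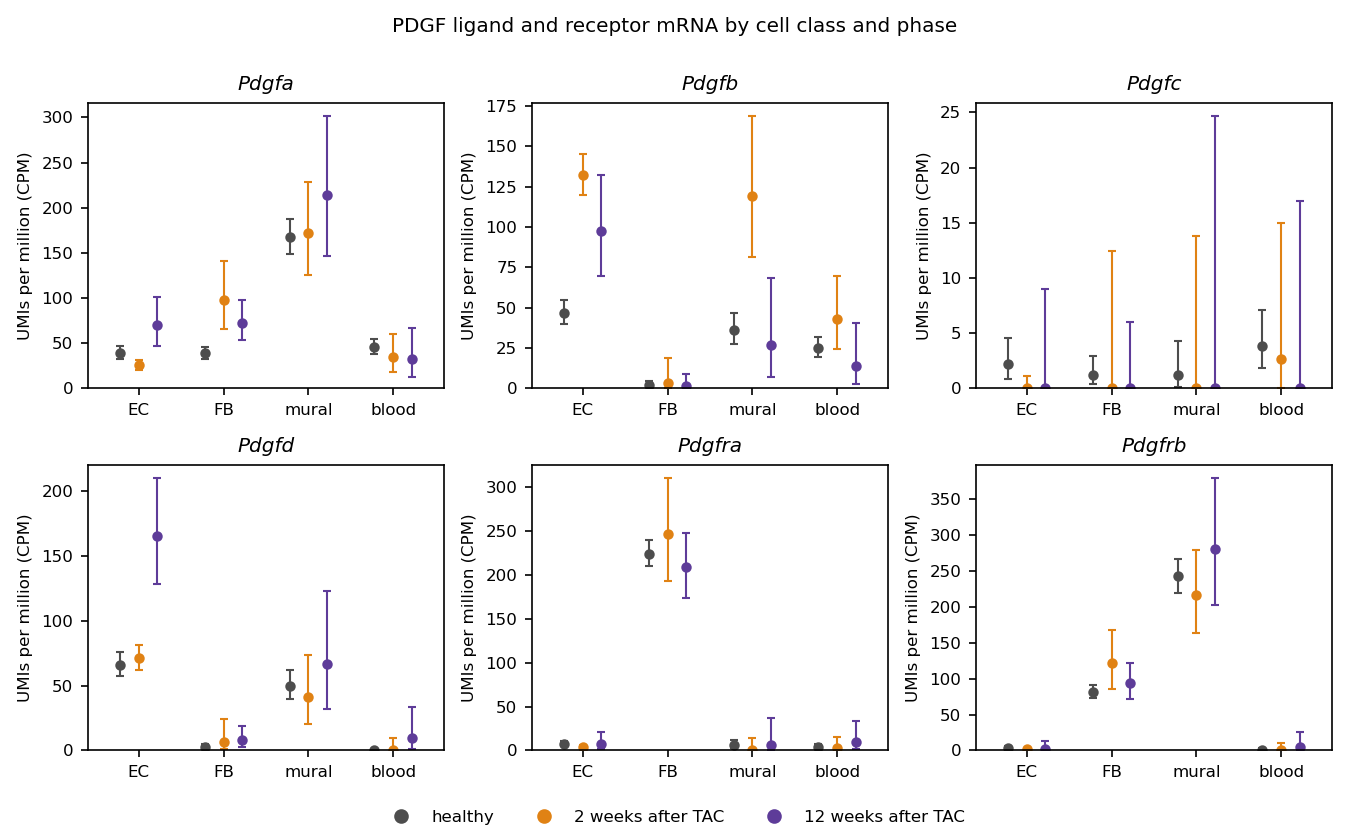
Level in CPM (linear axis from 0, scaled per gene) for the 6 PDGF genes in ECs, FBs, mural cells and blood cells, with 1 point per library and bars for the exact Poisson 95% interval. Pdgfb in ECs is lowest in the healthy library (46.8 CPM) and Pdgfd in ECs is highest at 12 weeks (165 CPM), while Pdgfra in FBs stays between 209 and 246 CPM.

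Pdgfb, the ligand that ECs use to recruit pericytes (ENSMUSG00000000489, GRCm38 chromosome 15, 79995874 to 80014977, minus strand), rose in ECs after TAC. Its level in ECs was 46.8 CPM in the healthy library (95% interval 39.6 to 55.0, 149 UMIs), 132 CPM at 2 weeks (120.1 to 146, 425 UMIs) and 97.3 CPM at 12 weeks (69.5 to 133, 40 UMIs). The intervals at 2 and 12 weeks did not overlap the healthy one and overlapped each other. The ratio to the healthy library was 2.83 at 2 weeks (2.34 to 3.43) and 2.08 at 12 weeks (1.43 to 2.96), and the ratio of 12 to 2 weeks was 0.735 (0.518 to 1.02). Of the members with at least 20 UMIs over both libraries, called changed here when their level differed by at least 2-fold, Pdgfb was the 1 called higher in ECs at 2 weeks, where 3.9% of 10356 genes were called higher, and 98.7% of those genes had a smaller ratio. At 12 weeks both Pdgfb and Pdgfd were called higher in ECs, where 9.17% of 9324 genes were, and 92.0% of genes had a smaller ratio than Pdgfb. The 12-week call for Pdgfb was close to the limit, and it fell below 2-fold under 5 of the 7 alternative settings, whose ratios ran from 1.75 to 2.90.

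The rise of Pdgfb at 2 weeks was spread over many ECs rather than a few. The share of ECs with a Pdgfb UMI was 11.8% in the healthy library (123 of 1040 cells), 20.6% at 2 weeks (330 of 1602) and 14.6% at 12 weeks (35 of 240), although the median EC had 2310.5, 1596 and 1426.5 UMIs. With every cell thinned to 1000 UMIs, which leaves out 0, 362 and 66 shallower ECs, the shares were 5.38%, 11.5% and 8.62%. FBs, in which Pdgfb stayed between 1.62 and 3.37 CPM, had a Pdgfb UMI in 0.663% of cells in the healthy library at a median depth of 3034.5 UMIs. The 5 ECs with the most Pdgfb UMIs held 8.72%, 4.71% and 25.0% of them at 0, 2 and 12 weeks.

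**Figure D2:**
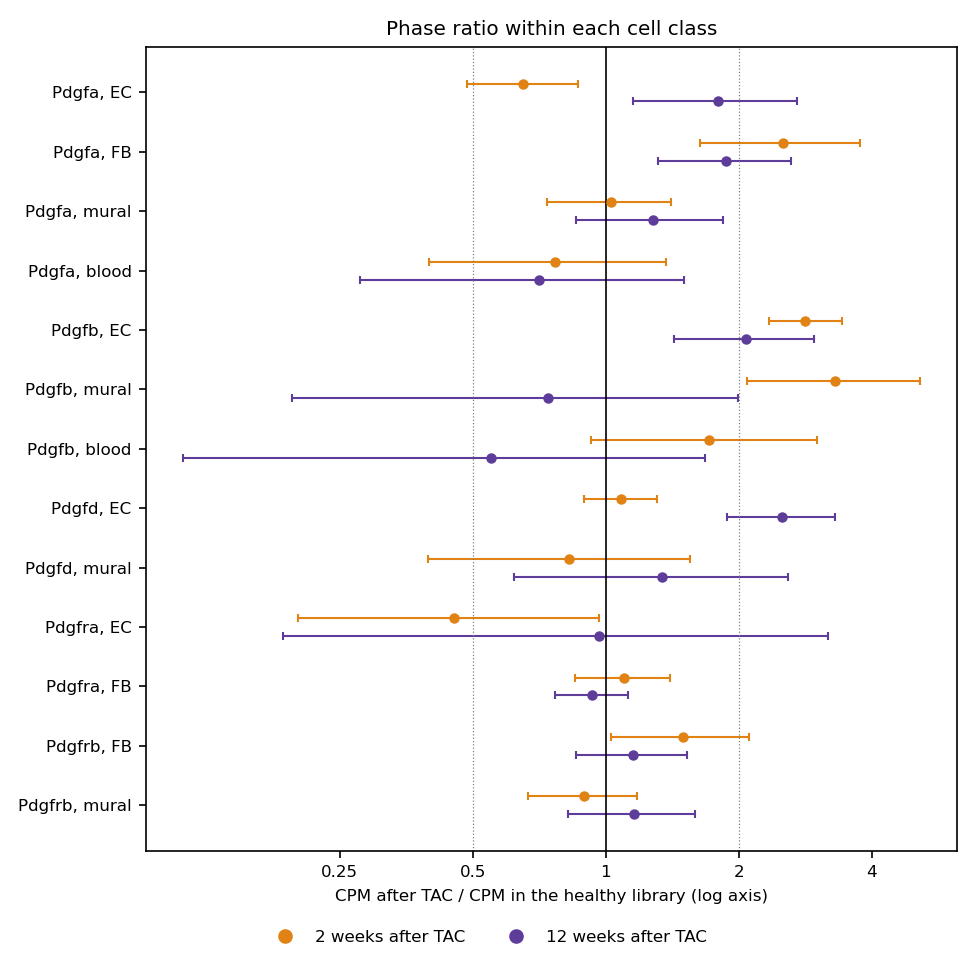
Ratio of the level 2 or 12 weeks after TAC to the healthy level (log axis, 1 marks no difference, dotted lines mark 2-fold) for each gene and class with at least 20 UMIs over both libraries, with conditional exact 95% intervals. Pdgfb in ECs lies at 2.83 and 2.08, Pdgfd in ECs at 1.08 and 2.51, and both receptors in their leading classes lie between 0.892 and 1.16.

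Among EC subsets, set by the same marker rule, Pdgfb was lower where endocardial markers led than where capillary markers did. Its healthy level was 109 CPM in ECs with arterial markers (Gja4, Gja5, Hey1, Sema3g), 59.0 CPM in ECs with capillary markers (Car4, Aplnr, Rgcc, Timp4), 13.2 CPM in ECs with endocardial markers (Npr3, Cytl1, Plvap) and 11.0 CPM in ECs with venous markers (Nr2f2, Vwf, Vcam1). No Pdgfb UMI was found in 20 ECs with lymphatic markers (upper limit of the interval 48.9 CPM). Against capillary ECs the endocardial ratio was 0.224 (0.0267 to 0.832) and the venous ratio 0.186 (0.00465 to 1.06), the latter with an interval that included 1. The difference between arterial and capillary ECs was within counting error in the healthy library (ratio 1.85, 0.775 to 3.79) and at 12 weeks (1.27, 0.240 to 4.30), but not at 2 weeks (1.74, 1.22 to 2.42).

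Within capillary ECs, the largest subset, Pdgfb went from 59.0 to 124 CPM at 2 weeks, a ratio of 2.09 (1.64 to 2.69). Within arterial ECs it went from 109 to 215 CPM (1.97, 0.913 to 4.86, 8 against 42 UMIs), and within the 272 and 482 ECs that no marker list led, from 37.0 to 146 CPM (3.95, 2.71 to 5.88). ECs led by Apln, Esm1, Mest and Pcdh17, genes known from sprouting vessels, had 30.1 CPM in the healthy library (5 UMIs in 59 cells) and 127 CPM at 2 weeks (10 UMIs in 37 cells), a ratio of 4.20 (1.31 to 15.7), and made up 5.67% and 2.31% of ECs. The Pdgfb level was thus higher at 2 weeks in each of these 4 groups of ECs, and the interval of the ratio included 1 in the arterial group but not in the other 3. At 12 weeks the ratio was 1.74 in capillary ECs (1.00 to 2.87) and 3.90 in ECs without a leading list (2.09 to 7.06).

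**Figure D3:**
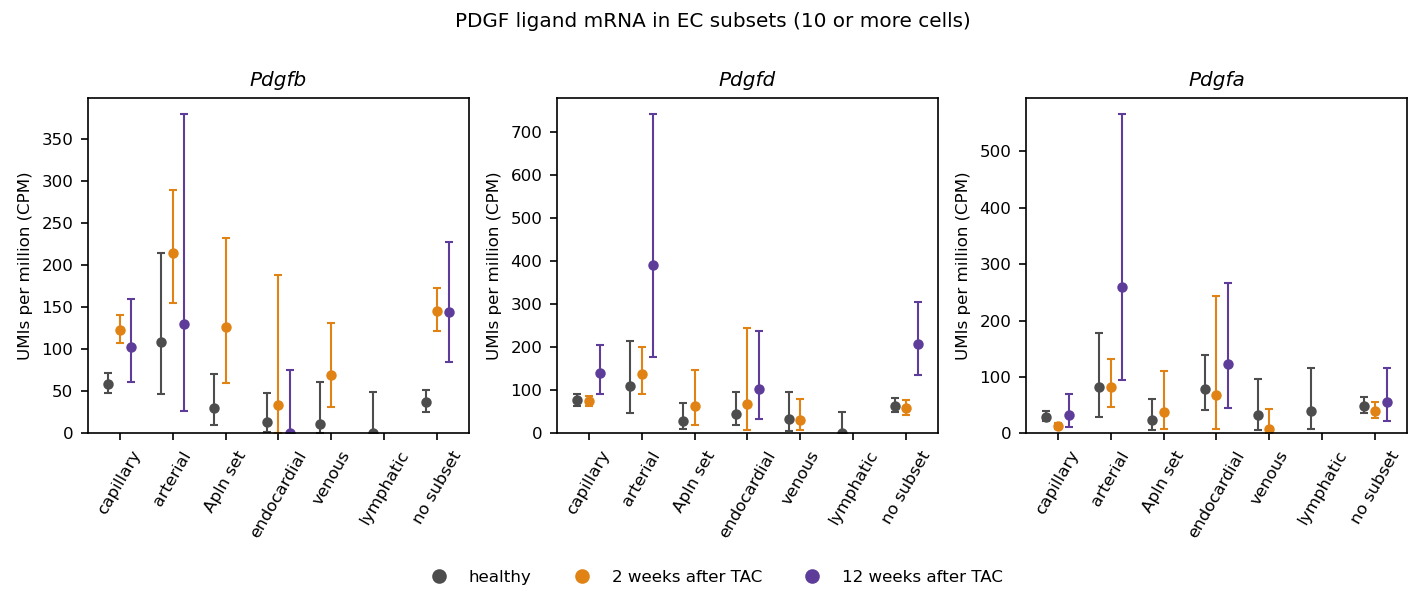
CPM of Pdgfb, Pdgfd and Pdgfa (linear axis from 0, scaled per gene) in EC subsets of 10 or more cells, with exact Poisson 95% intervals, by library. Pdgfb in capillary ECs goes from 59.0 CPM in the healthy library to 124 CPM at 2 weeks, Pdgfd in capillary ECs is at 77.0, 74.5 and 141 CPM, and Pdgfa in arterial ECs is at 81.8, 81.8 and 260.3 CPM.

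Pdgfd, a ligand of PDGF receptor beta that is released from a latent form by proteases (ENSMUSG00000032006, chromosome 9, 6168584 to 6378850, plus strand), rose in ECs only in the later library. It was at 66.0 CPM in healthy ECs (57.4 to 75.6, 210 UMIs), 71.3 CPM at 2 weeks (62.4 to 81.2, 229 UMIs) and 165 CPM at 12 weeks (128 to 210, 68 UMIs). The 12-week interval lay above both others, which overlapped. The ratio to healthy was 1.08 at 2 weeks (0.892 to 1.31) and 2.51 at 12 weeks (1.88 to 3.31), and that of 12 to 2 weeks was 2.32 (1.74 to 3.05). Of the genes tested in ECs at 12 weeks, 95.4% had a smaller ratio than Pdgfd.

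Pdgfb and Pdgfd therefore differed in their time course within the same ECs. At 2 weeks the interval of the Pdgfb ratio (2.34 to 3.43) lay above that of Pdgfd (0.892 to 1.31), whereas at 12 weeks their intervals overlapped. The 2-week ratio of Pdgfd went to 0.725 (0.540 to 0.972) after thinning to 1000 UMIs, which also leaves out shallower cells. The cause of this shift was not tested. The share of thinned ECs with a Pdgfd UMI was 9.13%, 6.94% and 17.8% at 0, 2 and 12 weeks. ECs with UMIs of both ligands were counted against the product of the 2 shares, with 29 against 21.2 cells in the healthy library, 48 against 41.8 at 2 weeks and 6 against 7.44 at 12 weeks.

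The 12-week level of Pdgfd was above the healthy one in capillary ECs, in arterial ECs and in ECs without a leading list. In capillary ECs it was at 77.0, 74.5 and 141 CPM at 0, 2 and 12 weeks, a ratio of 1.82 to healthy (1.15 to 2.80). In ECs without a leading list it was at 64.7, 58.6 and 208 CPM (3.22, 1.96 to 5.16), and in arterial ECs at 109, 138 and 390.4 CPM (3.58, 1.23 to 10.7, from 9 UMIs in 11 cells at 12 weeks). No Pdgfd UMI was found in the 20 healthy ECs with lymphatic markers, and the ratio to capillary ECs there was at most 0.644, the upper limit of its interval.

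While Pdgfb and Pdgfd changed, the lists for other cell types and for handling changed in ECs as well. Over the whole lists, CM genes (Tnnt2, Myh6, Actc1, Mb, Myl2, Tnni3) summed to 626, 473 and 175 CPM in ECs at 0, 2 and 12 weeks, and 5 of 6 were called lower at 12 weeks. Dissociation stress genes (Hspa1a, Hspa1b, Dnajb1, Atf3, Fos, Jun, Egr1) summed to 15596, 11814 and 9617 CPM, with 4 of 7 called lower at 12 weeks. Erythroid genes summed to 100.3, 327 and 65.7 CPM, and all 4 that were tested were called higher at 2 weeks. The FB check genes Dcn, Tcf21 and Lum summed to 517, 34.9 and 362 CPM in ECs. The part of these genes in the ligand values was not tested. ECs without a UMI of any other class had 45.9, 129 and 107 CPM of Pdgfb and 65.9, 71.8 and 150.2 CPM of Pdgfd, the same order of libraries as over all ECs.

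Mural cells also held UMIs of both EC ligands, but these lay in mural cells that carried EC markers as well. Pdgfb was at 36.2 CPM in healthy mural cells (27.7 to 46.5), 119 CPM at 2 weeks (81.7 to 169) and 26.7 CPM at 12 weeks (7.28 to 68.4), and it was the 1 of 4 tested members called higher there at 2 weeks (ratio 3.30, 2.08 to 5.14), where 5.73% of 7963 genes were. From 2 to 12 weeks it was the 1 of 4 called lower (0.224, 0.0575 to 0.631), where 10.9% of 3130 genes were, and from the healthy library to 12 weeks 0 of 4 were called, where 8.18% of genes were higher and 19.2% lower. Of its UMIs, 58 of 61, 30 of 32 and 4 of 4 came from mural cells with at least 1 UMI of Pecam1, Cdh5 or Kdr, which made up 212 of 446, 47 of 81 and 18 of 42 mural cells. In mural cells without such a UMI, Pdgfb was at 5.14 CPM in the healthy library (1.06 to 15.0), 26.9 CPM at 2 weeks (2 UMIs) and at 0 UMIs at 12 weeks. In mural cells without a UMI of any other class it had 1 UMI in the healthy library (3.38 CPM in 129 cells) and 0 in the 22 and 15 cells at 2 and 12 weeks, with an upper limit of 83.7 CPM at 2 weeks. With the marker-carrying mural cells left out, an alternative chosen after these values were seen, the ratio of ECs to mural cells in the healthy library went from 1.29 (0.955 to 1.77) to 9.11 (3.06 to 44.7).

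Pdgfd in mural cells behaved in the same way in the healthy library, with 75 of 84 UMIs in mural cells that carried an EC marker. It was at 49.8, 41.1 and 66.8 CPM over all mural cells, and at 15.4, 26.9 and 16.7 CPM over those without an EC marker, the last 2 from 2 and 1 UMIs. The ratio of ECs to mural cells was 1.32 (1.02 to 1.73) over all healthy mural cells and 4.28 (2.21 to 9.49) without the marker-carrying ones. In mural cells, Pdgfd was higher among those with pericyte markers (77.7 CPM) than among those with smooth muscle markers (29.6 CPM) in the healthy library, a ratio of 2.63 (1.46 to 4.85). These 2 subsets were not split by EC marker UMIs, so that the part of the marker-carrying cells in this ratio was not tested. The own genes of mural cells did not follow the EC marker split in the healthy library, since Pdgfrb was at 233 CPM without and 248 CPM with an EC marker, and Pdgfa at 149 and 177 CPM. At 12 weeks, however, Pdgfrb was at 418 CPM (271 to 618) without and 189 CPM (110.1 to 303) with an EC marker.

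**Figure D4:**
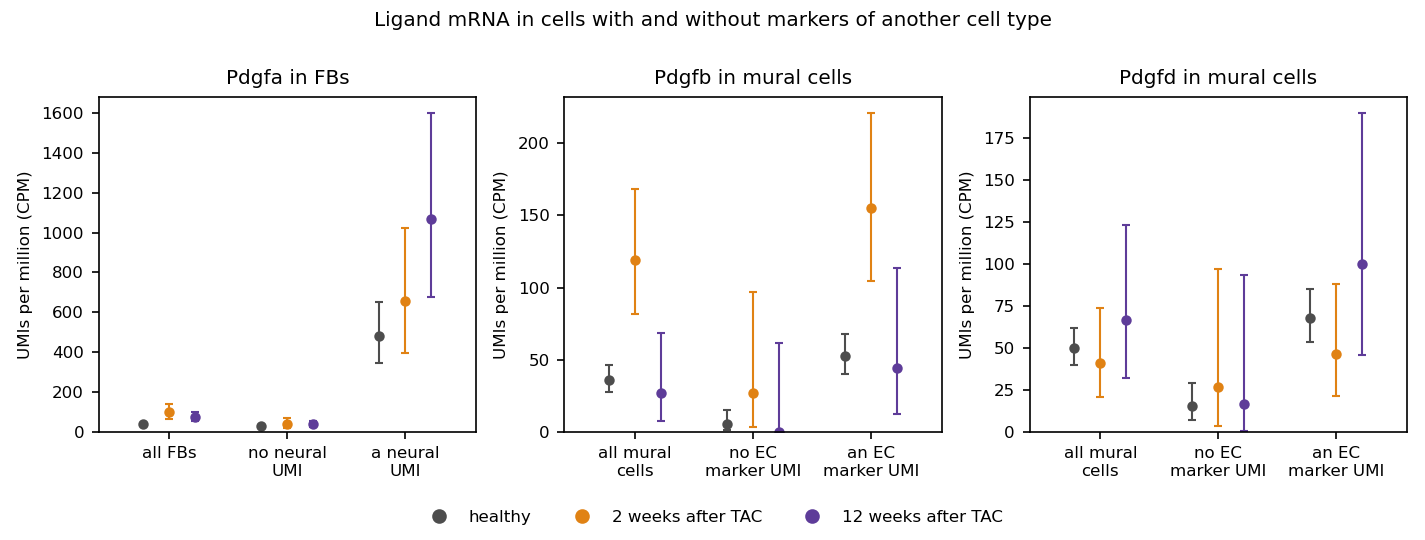
CPM (linear axis from 0, scaled per panel) of Pdgfa in FBs split by UMIs of the neural list, and of Pdgfb and Pdgfd in mural cells split by UMIs of EC markers, with exact Poisson 95% intervals, by library. Healthy Pdgfb is at 5.14 CPM in mural cells without and 52.6 CPM in those with an EC marker UMI, and Pdgfa in FBs without a neural UMI is at 29.0, 37.4 and 36.9 CPM.

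Blood cells also held Pdgfb, with 21.2%, 3.10% and 4.76% of its UMIs in a library, against 7.19%, 8.14% and 23.8% in cells of no class. The level in blood cells was 25.1 CPM in the healthy library (65 UMIs), 43.0 CPM at 2 weeks (16 UMIs) and 13.8 CPM at 12 weeks (3 UMIs), with overlapping intervals. In the healthy library 63 of these UMIs lay in the 785 blood cells with macrophage markers (Cd68, Adgre1, C1qa, Csf1r), at 27.2 CPM. At 2 weeks macrophage-marked cells had 54.7 CPM (11 UMIs in 82 cells), a ratio of 2.01 whose interval of 0.956 to 3.85 included 1. Of the members tested in blood cells, Pdgfa and Pdgfb, 0 of 2 were called at 2 weeks, where 10.6% of 7685 genes were higher and 15.1% lower, or at 12 weeks, where 12.1% and 15.5% of 7595 were. Pdgfd, by contrast, had 0 UMIs in healthy blood cells, which allows up to 1.16 CPM at 3 counts, and at most 2 UMIs in the later libraries.

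Pdgfa, a ligand of PDGF receptor alpha (ENSMUSG00000025856, chromosome 5, 138976014 to 138997370, minus strand), was highest in mural cells among the gated classes in all 3 libraries. It was at 167 CPM in healthy mural cells (148 to 188, 282 UMIs), 172 CPM at 2 weeks (126 to 229, 46 UMIs) and 214 CPM at 12 weeks (146 to 302, 32 UMIs). These intervals overlapped, and the ratios to healthy were 1.03 (0.734 to 1.41) and 1.28 (0.857 to 1.85). The next class in the healthy library, blood cells at 45.5 CPM, was lower by a ratio of 3.67 (2.95 to 4.59), and blood cells, ECs (39.3 CPM) and FBs (38.8 CPM) could not be ordered beyond counting error. Healthy mural cells with smooth muscle markers (Myh11, Acta2, Tagln, Cnn1) had 189 CPM against 131 CPM in those with pericyte markers (Kcnj8, Abcc9, Rgs5, Vtn), and the ratio of pericytes to smooth muscle cells was 0.693 (0.495 to 0.960). Outside the gated classes, 27 healthy cells had at least 2 UMIs of Kcna1, Kcna2 and Sox10. Their Pdgfa level was 489 CPM (320 to 717), above the interval of healthy mural cells.

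In ECs, Pdgfa lay below the healthy level at 2 weeks and above it at 12 weeks. It was at 39.3 CPM in the healthy library (32.7 to 46.8, 125 UMIs), 25.5 CPM at 2 weeks (20.3 to 31.7, 82 UMIs) and 70.6 CPM at 12 weeks (47.2 to 101, 29 UMIs), with no overlap between libraries. The ratios to healthy of 0.650 (0.486 to 0.865) and 1.80 (1.16 to 2.71) did not reach 2-fold, while that of 12 to 2 weeks was 2.76 (1.74 to 4.27) and was called, as were 8.16% of 9201 genes in that direction. In ECs without a UMI of another class the levels were 44.4, 26.7 and 55.2 CPM, with overlapping intervals between 0 and 12 weeks.

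The subsets of ECs that held Pdgfa changed in number between libraries. Arterial ECs had 81.8, 81.8 and 260.3 CPM at 0, 2 and 12 weeks (6, 16 and 6 UMIs) and capillary ECs 29.8, 13.0 and 32.4 CPM, so that the arterial level was 6.31 times the capillary level at 2 weeks (3.13 to 12.4). ECs with endocardial markers had 79.3 CPM in the healthy library, 2.66 times the capillary level (1.29 to 5.08). They were 4.90% of ECs in the healthy library, 0.874% at 2 weeks and 7.50% at 12 weeks, and arterial ECs were 3.27%, 6.18% and 4.58%. Within capillary ECs the ratio to healthy was 0.435 at 2 weeks (0.255 to 0.723) and 1.09 at 12 weeks (0.380 to 2.55), and in ECs without a leading list it was 0.808 and 1.14, both with intervals that included 1.

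In FBs, Pdgfa was higher after TAC, but a few FBs that also had UMIs of genes known from glial and nerve cells held 19 of its 29 UMIs at 2 weeks and 23 of 45 at 12 weeks, against 42 of 156 in the healthy library. The class level was 38.8 CPM in the healthy library (33.0 to 45.4, 156 UMIs), 97.9 CPM at 2 weeks (65.5 to 141, 29 UMIs) and 72.8 CPM at 12 weeks (53.1 to 97.4, 45 UMIs). Pdgfa was the 1 of 3 tested members called higher in FBs at 2 weeks (ratio 2.52, 1.63 to 3.76), where 10.6% of 9976 genes were, and at 12 weeks the ratio was 1.87 (1.31 to 2.63) and 0 of 3 were called, where 6.85% of 10163 genes were higher and 6.93% lower. The 5 FBs with the most Pdgfa held 14.7% of its UMIs in the healthy library, and 72.4% at 2 weeks, and 1 FB at 12 weeks had 16 UMIs.

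FBs with 3 or more Pdgfa UMIs numbered 10, 3 and 3, and 3, 3 and 2 of them also had a UMI of the neural list (Kcna1, Kcna2, Sox10). FBs with any neural-list UMI were 35 of 1206, 13 of 109 and 5 of 178 cells, and in them Pdgfa was at 482 CPM (348 to 652), 656 CPM (395 to 1024) and 1068 CPM (677 to 1602). In the other FBs it was at 29.0 CPM (23.9 to 34.9), 37.4 CPM (17.9 to 68.8) and 36.9 CPM (23.1 to 55.8). Without the neural-marked cells, an alternative chosen after the values were seen, the FB ratio was 1.29 at 2 weeks (0.602 to 2.46) and 1.27 at 12 weeks (0.766 to 2.02), so that the call at 2 weeks was not kept. Pdgfa was likewise at 489 CPM (320 to 717, 26 UMIs) in the 27 healthy cells of no class that had at least 2 neural-list UMIs.

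Healthy FBs led by Postn, Cilp and Thbs4, genes of matrix-producing FBs, had 78.4 CPM of Pdgfa, and those led by Wif1, Comp and Chad had 74.5 CPM. Both were above FBs led by Cxcl14, Hsd11b1 and Mt1 (31.4 CPM), by ratios of 2.49 (1.45 to 4.34) and 2.37 (1.09 to 4.86). In the later libraries all these intervals included 1, with 1.33 and 1.60 for the Postn set at 2 and 12 weeks and 3.97 and 0.764 for the Wif1 set. The FB subsets were not split by neural-list UMIs, so that the part of the neural-marked cells in these ratios was not tested. Blood cells had 45.5, 35.0 and 32.2 CPM of Pdgfa, and 117 of the 118 healthy UMIs lay in macrophage-marked cells.

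Pdgfc, the other ligand of PDGF receptor alpha (ENSMUSG00000028019, chromosome 3, 81036416 to 81214040, plus strand), had 25 UMIs in the healthy library, 1 at 2 weeks and 0 at 12 weeks. Its highest healthy level was 3.86 CPM in blood cells (1.85 to 7.10, 10 UMIs), followed by ECs with 2.20 CPM (7 UMIs), and their intervals overlapped. At 12 weeks a count of 0 allows up to 4.85 CPM in FBs and 20.0 CPM in mural cells at 3 counts, so that levels as in the healthy library would not have been detectable there. In the 1602 ECs at 2 weeks the count was 0, with an upper limit of the interval of 1.15 CPM. The ratio to the 7 UMIs of healthy ECs had an upper limit of 0.687. All 7, however, lay in the 306 healthy ECs with a UMI of another class (5.95 CPM). The 734 healthy ECs without one had 0 UMIs (upper limit 1.84 CPM). At 2 weeks the 138 ECs with a UMI of another class had 0, with an upper limit of 9.99 CPM. All 10 healthy UMIs of blood cells lay in macrophage-marked cells.

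Pdgfra, the receptor gene that marks FBs (ENSMUSG00000029231, chromosome 5, 75152292 to 75198215, plus strand), showed no difference between phases in FBs beyond counting error. It was at 224 CPM in healthy FBs (210 to 239, 900 UMIs), 246 CPM at 2 weeks (193 to 310, 73 UMIs) and 209 CPM at 12 weeks (174 to 248, 129 UMIs). All 3 intervals overlapped, and the ratios to healthy were 1.10 (0.854 to 1.40) and 0.931 (0.768 to 1.12). FBs held 91.1%, 83.9% and 89.0% of the Pdgfra UMIs of a library, and the FB level was 29.7 times that of ECs in the healthy library (19.8 to 46.6).

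Outside FBs the highest Pdgfra level in any class and library was 9.20 CPM, from 2 UMIs in blood cells at 12 weeks. Pdgfra was the 1 member called lower in ECs at 2 weeks, from 7.55 to 3.43 CPM (ratio 0.454, 0.201 to 0.963), where 6.57% of 10356 genes were called lower. That call rests on 24 against 11 UMIs, each in a different cell, and healthy mural cells had a like level of 6.53 CPM. At 12 weeks ECs had 7.30 CPM of Pdgfra (3 UMIs). The FB check genes summed to 517, 34.9 and 362 CPM in ECs at 0, 2 and 12 weeks. ECs without a UMI of another class had 8.48 and 3.52 CPM of Pdgfra at 0 and 2 weeks. The part of FB transcripts in the call was not tested. A Pdgfra UMI was seen in 46.9% of healthy FBs, 38.5% at 2 weeks and 43.8% at 12 weeks, and in 21.1%, 26.8% and 23.6% of cells thinned to 1000 UMIs, with overlapping intervals. In healthy blood cells, which should lack the gene, the unthinned share was 1.05% at a median depth of 2725 UMIs against 3034.5 UMIs in FBs.

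Healthy FB subsets differed in Pdgfra. The level was 254 CPM in FBs led by Cxcl14, Hsd11b1 and Mt1, 238 CPM in those led by Cd248, Pi16 and Dpp4, 147 CPM in those led by Postn, Cilp and Thbs4 and 99.3 CPM in those led by Wif1, Comp and Chad. Against the first of these, the Postn set was lower by a ratio of 0.580 (0.430 to 0.774) and the Wif1 set by 0.391 (0.219 to 0.650), whereas the Pi16 set had a ratio of 0.937 (0.785 to 1.12). At 12 weeks the Postn and Wif1 ratios were 0.497 (0.213 to 1.07) and 0.428 (0.108 to 1.24), and at 2 weeks 0.794 (0.397 to 1.65) and 0.709 (0.200 to 2.08). All of these intervals included 1. The Pi16 ratio was 0.763 at 2 weeks (0.183 to 2.43) and 1.76 at 12 weeks (1.02 to 3.06), the latter with an interval above 1. The Postn set made up 8.54% of FBs in the healthy library, 37.6% at 2 weeks and 10.1% at 12 weeks, and its Pdgfra level was 147, 214 and 99.6 CPM. In the Pi16 set Pdgfra was at 352 CPM at 12 weeks (35 UMIs in 36 cells), a ratio of 1.48 to healthy (1.01 to 2.10).

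**Figure D5:**
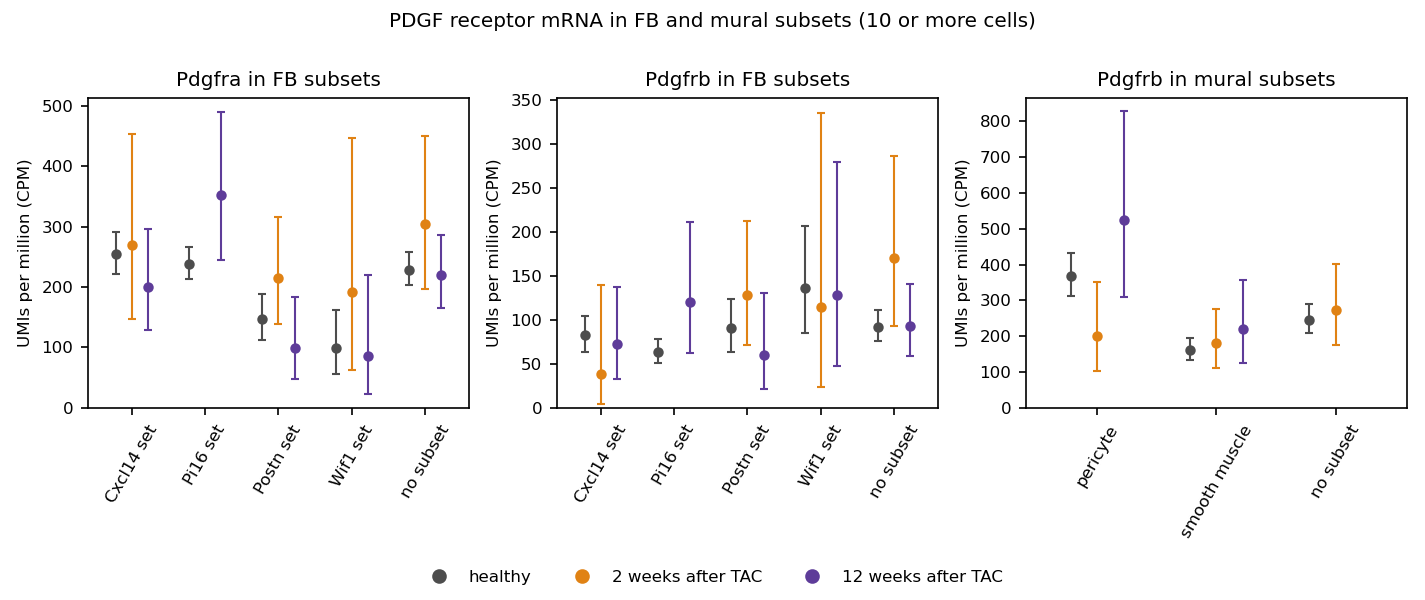
CPM of Pdgfra and Pdgfrb in FB subsets and of Pdgfrb in mural subsets (linear axis from 0, scaled per panel), for subsets of 10 or more cells, with exact Poisson 95% intervals, by library. Healthy Pdgfra is at 254 CPM in the Cxcl14 set and 99.3 CPM in the Wif1 set, and healthy Pdgfrb is at 369 CPM in pericytes and 163 CPM in smooth muscle cells.

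Pdgfrb, the receptor gene of pericytes and smooth muscle cells (ENSMUSG00000024620), was highest in mural cells and next in FBs in all 3 libraries. Mural cells had 243 CPM in the healthy library (220 to 267, 409 UMIs), 216 CPM at 2 weeks (164 to 280, 58 UMIs) and 281 CPM at 12 weeks (202 to 379, 42 UMIs). The ratios to healthy were 0.892 (0.666 to 1.18) and 1.16 (0.821 to 1.59), so that the phases did not differ beyond counting error. When the 15 mural cells at 12 weeks without a UMI of any other class were used, the 12-week ratio was 2.35 (1.27 to 4.07).

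FBs had 81.4 CPM of Pdgfrb in the healthy library (72.8 to 90.7, 327 UMIs), 121 CPM at 2 weeks (85.1 to 168, 36 UMIs) and 93.8 CPM at 12 weeks (71.2 to 121, 58 UMIs). The 2-week ratio of 1.49 had an interval just clear of 1 (1.03 to 2.11) and was not called, and 75.0% of 9976 genes had a smaller ratio in FBs. The level in mural cells was 2.98 times that in FBs in the healthy library (2.57 to 3.46), 1.78 times at 2 weeks (1.16 to 2.78) and 2.99 times at 12 weeks (1.96 to 4.53). ECs stayed at or below 3.46 CPM, and a Pdgfrb UMI was seen in 0.865% of healthy ECs against 50.0% of healthy mural cells and 22.1% of healthy FBs.

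Pericytes carried more Pdgfrb than smooth muscle cells in the healthy library, with 369 CPM (313 to 433) against 163 CPM (134 to 196) and a ratio of 2.27 (1.77 to 2.93). At 2 weeks the levels were 201 and 181 CPM, a ratio of 1.11 (0.498 to 2.36), and at 12 weeks 524 and 220 CPM, a ratio of 2.39 (1.15 to 5.00). The pericyte level at 2 weeks came from 12 UMIs in 24 cells and was 0.544 of the healthy level (0.275 to 0.978), while smooth muscle cells were at 1.11 times theirs (0.662 to 1.78). The pericyte marker Kcnj8 was at 87.8, 14.9 and 73.5 CPM in mural cells at 0, 2 and 12 weeks. Whether the 2-week subset holds the same kind of cells was not tested. In FBs, Pdgfrb did not share the order of Pdgfra among subsets, since healthy levels were 82.3 CPM in the Cxcl14 set, 63.0 CPM in the Pi16 set, 90.3 CPM in the Postn set and 136 CPM in the Wif1 set. Of these, the Pi16 and Wif1 sets did not overlap.

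UMIs of both receptors were found in single FBs of all 3 libraries. In the healthy library 131 of 1206 FBs (10.9%, 9.16 to 12.8) had UMIs of both against 125 cells from the product of the shares, at 2 weeks 19 of 109 (17.4%, 10.8 to 25.9) against 11.9, and at 12 weeks 22 of 178 (12.4%, 7.91 to 18.1) against 20.6. After thinning to 1000 UMIs the counts were 29 against 22.6, 3 against 2.15 and 3 against 3.77. In mural cells both were found in 5 of 446, 0 of 81 and 1 of 42 cells, since Pdgfra was nearly absent there. Pdgfa and Pdgfrb were found together in 106 of 446 healthy mural cells (23.8%), against 91.0 cells from the product of the shares, and in 10 against 13.6 cells after thinning.

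The wider pathway was followed with 68 genes for processing, binding, relay and inhibition of PDGF signals. In ECs at 2 weeks, 64 were tested, of which 4 were called higher and 1 lower, beside 3.9% and 6.57% of all genes, and the median log2 ratio of the list was -0.03 against 0.00 for all genes. Hspg2, which encodes the basement membrane proteoglycan perlecan, went from 332 to 940.5 CPM (ratio 2.83, 2.64 to 3.04). This was the largest rise among list genes with at least 50 UMIs over both libraries. The adaptor Nck2 rose by a ratio of 2.37 (1.63 to 3.50) and the transcription factor gene Stat5b by 2.10 (1.43 to 3.15). At 12 weeks 62 were tested in ECs, with 2 higher (Nck2, 3.21, and the phosphatase gene Ptprj, 3.14) and 4 lower, beside 9.17% and 9.47% of all genes, with a list median of -0.07 against 0.09 for all genes. The lower ones were the kinase subunit gene Pik3cb (0.336), the feedback inhibitor gene Spry4 (0.415), the kinase gene Braf (0.418) and Stat3, which went from 216 to 102 CPM (0.473, 0.338 to 0.646). Pik3cb (0.0677 to 1.03) and Braf (0.111 to 1.12) rest on 3 and 4 UMIs at 12 weeks, with intervals that included 1.

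In FBs at 2 weeks the median log2 ratio of the list was 0.27 against 0.08 for all genes, beside a shift of 0.14 in the center of well counted genes. Of 65 tested, 6 were called higher and 2 lower, beside 10.6% and 11.7% of all genes, or 5 and 3 with median-of-ratios scaling. Hspg2 rose from 378 to 1012 CPM (2.67, 2.36 to 3.03), the protease gene Furin from 35.4 to 81.0 CPM (2.29, 1.42 to 3.55) and Ptprj from 22.4 to 47.2 CPM (2.11, 1.11 to 3.72). The kinase gene Yes1 (0.230) and the adaptor gene Nck1 (0.447) were lower, Yes1 from 1 UMI at 2 weeks and with an interval that included 1. At 12 weeks 1 was higher and 2 were lower of 64 tested, or 0 and 3 with median-of-ratios scaling, beside 6.85% and 6.93% of all genes. Sparc, whose product binds PDGF in the matrix, fell from 6330 to 2684 CPM (0.424, 0.403 to 0.446), and Yes1 was at 0.330 of its healthy level (0.0662 to 1.01).

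In mural cells at 2 weeks, 4 of 62 tested list genes were called higher and 1 lower, or 4 and 5 with median-of-ratios scaling, beside 5.73% and 11.6% of all genes. Hspg2 rose there too, from 125 to 351 CPM (2.82, 2.18 to 3.61), as did the adaptor gene Gab1 (2.34), while the kinase subunit gene Pik3r1 was lower (0.458). At 12 weeks 2 of 63 were higher and 9 lower, or 2 and 13 with median-of-ratios scaling, beside 8.18% and 19.2% of all genes. The list median was -0.38 against 0.03 for all genes. The kinase gene Map2k1 was higher (2.56), and the kinase gene Akt2 (0.152) and Furin (0.380) were lower, from 1 and 3 UMIs at 12 weeks, the latter with an interval that included 1. The Hspg2 level was thus higher at 2 weeks in ECs, FBs and mural cells, but mural Hspg2 was not split by EC markers. When mural cells without a UMI of any other class were used, 22 list genes were tested at 2 weeks, with 0 called higher and 1 lower.

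In blood cells the make-up of the class differed between libraries, with macrophage-marked cells at 91.3%, 52.9% and 41.8% of the class. At 2 weeks 9 of 56 tested list genes were higher and 4 lower, or 5 and 6 with median-of-ratios scaling, beside 10.6% and 15.1% of all genes. The kinase genes Jak2 (3.13) and Braf (2.24), the adaptor gene Shc1 (2.18) and Furin (2.11) were higher, and Rasa1 (0.281), Sparc (0.349), Jun (0.353) and Egr1 (0.499) were lower. Jun and Egr1 are also on the dissociation stress list, which summed to 7069, 4606 and 3936 CPM in blood cells. Sparc was at 6330 CPM in healthy FBs, and the FB check genes summed to 304 and 32.3 CPM in blood cells at 0 and 2 weeks. The part of FB transcripts in the Sparc value was not tested. At 12 weeks 5 of 53 were higher and 9 lower, beside 12.1% and 15.5%. The inhibitor gene Dusp6 was higher (2.42), and Grb2 (0.259), Ptprj (0.417), Pdpk1 (0.418) and Spred1 (0.480) were lower, Pdpk1 from 2 UMIs at 12 weeks and with an interval that included 1 (0.0494 to 1.58).

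The genes most like each member were found by Pearson correlation of log2(CPM + 10) over the 12 combinations of class and library, among 7948 genes with at least 200 UMIs. These points share libraries and depth, and the correlations are descriptions. For Pdgfb they were Slc6a6 (0.97), Map3k11 (0.94) and Parvb (0.93), for Pdgfd Sox17, Clec14a and Ldb2 (0.98, 0.98 and 0.97), and for Pdgfa Palld, mt-Cytb and Tpm2 (0.96, 0.94 and 0.94). For Pdgfra they were Aldh1a1, Dclk1 and Lpar1 (each 0.99), and for Pdgfrb they included Cacna2d1 and C1s1 (each 0.99). Those of Pdgfc (Rbbp8, Grb2 and Larp7, 0.86 to 0.87) rest on its 25 healthy UMIs and 1 UMI at 2 weeks.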

How the data were processed

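The PDGF genes and all lists were chosen with earlier results of these data known. The authors made 1 Chromium Single Cell 3' v2 library per phase and deposited UMI counts per gene and cell, not normalized; the submitters' processing notes name Cell Ranger 2.0.0 and mm10. The libraries held 12309881, 4472377 and 1723863 UMIs in 3900, 2239 and 802 cells.

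Cells with at least 200 genes were kept, as in the study's methods, which removed 8, 8 and 10 cells. Classes and subsets were gated on marker sums (at least 2 UMIs and at least 2 times every other list). No doublet caller was run; a gate without any UMI of another class was an alternative. UMIs were summed per class and given as CPM with exact Poisson 95% intervals, ratios with conditional exact binomial intervals and shares with Clopper-Pearson intervals, all for counting error only. Genes with at least 20 UMIs over both libraries were tested against a 2-fold limit, without p-values, because each phase is 1 library and cells are not replicates. A count of 0 was given a floor of 3 counts. Pathway genes named are up to 4 per direction, class and comparison with the healthy library, past 2-fold and with at least 50 UMIs. Some genes that this rule or a marker list would name are not reported here, and the neural list was used without them. Thinning to 1000 UMIs used seed 1. Call and interval functions were tested on simulated data. Coordinates are from GENCODE (GRCm38), matched by Ensembl identifier. Annotated genes overlap Pdgfa, Pdgfb, Pdgfc, Pdgfd and Pdgfra on the opposite strand, and how strand was used in counting is not given in the sources used here. Python 3.11.15, numpy 2.4.6, scipy 1.17.1, pandas 2.3.3 and matplotlib 3.10.9 were used. Alternatives were other gates, gene and mitochondrial filters, thinning, equal weight per cell, median-of-ratios scaling, other count minimums and a 1.5-fold limit.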

Additional observations from a re-analysis of the deposited data

Results flagged for a closer look

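Pdgfa moved in opposite directions under the same contrast. At 2 weeks its ratio to the healthy library was 2.52 in FBs and 0.650 in ECs, with intervals on opposite sides of 1. In ECs alone, the ratio was 0.650 at 2 weeks and 1.80 at 12 weeks. Neither difference was tested, since each phase is 1 library. Beside the FB value stands the ratio of 1.29 in FBs without a neural-list UMI, and beside the EC values stand the ratios in capillary ECs, 0.435 at 2 weeks and 1.09 at 12 weeks.

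Cells of no class, which enter none of the ratios above, had 132 CPM of Pdgfb at 2 weeks (94.9 to 178, 42 UMIs) against 27.0 CPM in the healthy library (16.9 to 40.9, 22 UMIs). At 12 weeks they had 47.5 CPM (26.6 to 78.3, 15 UMIs). Most of these cells, 265 of 284 at 2 weeks, had under 2 marker UMIs, and their cell type was not tested. No group had 4 or more samples, so that no sample could be compared with others of its group.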

How the results depend on the processing

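No paired analysis was possible because each phase is 1 library. For the PDGF genes in their leading classes and Pdgfa in FBs, no called ratio changed direction under the alternatives run; they were not run for the called ratios of mural Pdgfb, EC Pdgfra and EC Pdgfa from 2 to 12 weeks. The value lay inside the interval of the reported one in 24 of 30 class ratios and 64 of 70 phase ratios. With no UMI of another class allowed, healthy ECs over mural cells went to 13.6 for Pdgfb and 2.78 for Pdgfd, and mural Pdgfrb to 1.18 at 2 weeks and 2.35 at 12 weeks. With cells thinned to 1000 UMIs the same class ratios were 2.76 for Pdgfb and 2.76 for Pdgfd, EC Pdgfd at 2 weeks was 0.725 and FB Pdgfra at 12 weeks was 1.19. With each cell weighted alike they were 2.04 for Pdgfb and 1.97 for Pdgfd, EC Pdgfd at 2 weeks was 0.831 and mural Pdgfrb at 12 weeks was 1.79. With mural cells carrying an EC marker left out, chosen after seeing the data, the class ratios were 9.11 and 4.28, and with neural-marked FBs left out the Pdgfa ratios in FBs were 1.29 and 1.27. The EC Pdgfb ratio at 2 weeks ran from 2.34 to 3.31 over 7 alternatives. EC Pdgfd at 12 weeks stayed at 2-fold or more in 6 of 7, with 1.89 when each cell was weighted alike. Median-of-ratios scaling, which shifts the center of all well counted genes by 0.02 to 0.20 on the log2 scale, gave 1.86 for EC Pdgfb and 2.24 for EC Pdgfd at 12 weeks. The causes were not tested.

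Counts of pathway genes past 2-fold were within 1.5 times the reported count in 43 of 64 cases. A 1.5-fold limit gave 19 at 12 weeks in ECs (reported 6), 21 and 9 in FBs (8 and 3), 14 and 28 in mural cells (5 and 11) and 24 and 27 in blood cells (13 and 14). At least 50 UMIs gave 3 in ECs at 2 weeks (5), 3 and 7 in mural cells and 9 in blood cells at 12 weeks. A minimum of 1 UMI gave 10 in ECs at 12 weeks, 10 in mural cells at 2 weeks and 20 and 24 in blood cells. At least 3 marker UMIs gave 10 in ECs at 12 weeks. No UMI of another class gave 5 in FBs at 12 weeks and 1 and 5 in mural cells. Without cells over 10% mitochondrial UMIs mural cells had 8 at 2 weeks, and with median-of-ratios scaling 9. Depth limits mural cells at 12 weeks, where 3 UMIs in 42 cells stand for 20.0 CPM.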

Other observations

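Neural-marked cells of no class (at least 2 UMIs of Kcna1, Kcna2 and Sox10) numbered 27, 8 and 7 at 0, 2 and 12 weeks. Their Pdgfa level was 489 CPM in the healthy library (26 UMIs), 248 CPM at 2 weeks (3 UMIs, 51.2 to 725) and 271 CPM at 12 weeks (3 UMIs, 55.8 to 791), with overlapping intervals. They held 0 UMIs of Pdgfra, Pdgfrb, Pdgfc and Pdgfd in all 3 libraries and 0, 1 and 0 UMIs of Pdgfb.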
